A study of Mus musculus with 22 samples.

Results

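The miRNAs described here are mmu-miR-103-3p and mmu-miR-107-3p (miR-103-3p and miR-107-3p below), the mature miRNAs that lie in introns of the pantothenate kinase genes Pank1, Pank2 and Pank3. They were chosen by name and position, with earlier results of these data known, and are 2 of the 1966 mature miRNA names in the deposited table. The libraries were made from small RNA of round spermatids (RS), haploid cells of the testis that have completed meiosis, taken from mice aged 75 to 85 days. The study asked what the RNA helicase GRTH (DDX25) does in spermiogenesis, by comparing mice without it (GRTH-KO) and mice with a knock-in of a changed GRTH (GRTH-KI) with wild-type (WT) mice. The 22 libraries formed 4 groups in 2 experimental batches. Batch 1 held WT (n = 5) and KO (n = 5), and batch 2 held WT (n = 6) and KI (n = 6), so each mutant was compared with the WT of its own batch. The labels and methods name no promoter or Cre that would limit either allele to a cell type. KI mice have GRTH protein but lack its phosphorylated form, according to the study.

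Total counts ranged from 870913 to 1081333 in WT and from 559957 to 881323 in KO of batch 1, a difference that passed a two-sided exact permutation test (p = 0.0159, and 0.0317 adjusted over the 2 comparisons of totals). In batch 2 the totals were 2067322 to 3239357 in WT and 2107461 to 3101145 in KI (p = 0.799, exact permutation test). All 7 miRNAs on a list of germ cell miRNAs (such as miR-34c-5p and miR-449a-5p) were counted in every group, and the list held a median of 26.3% of the counts in WT and 24.3% in KO of batch 1, and 34.2% in WT and 33.4% in KI of batch 2. GRTH is encoded by an mRNA, so its loss was not examined in these libraries.

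Pantothenate kinases carry out the first, rate-limiting step of coenzyme A synthesis. The vertebrate genes Pank1, Pank2 and Pank3 have a miRNA of the miR-103 and miR-107 family in an intron, read in the host's direction. These miRNAs are known for effects on lipid metabolism and insulin sensitivity and, through Dicer mRNA, on miRNA production itself. A miRNA finds its targets mainly through its seed, bases 2 to 8, and miR-103 and miR-107 belong with miR-15, miR-16, miR-195, miR-322, miR-497 and miR-503 to a larger group that shares the letters AGCAGC near the 5′ end.

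The mature sequences are shown because both miRNAs are nearly the same molecule, which bears on every value below. The capitals mark the seed. Sequences are from RefSeq on GRCm38.p6, 5′ to 3′, and both names had an entry.
mmu-miR-103-3p: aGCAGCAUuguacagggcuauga
mmu-miR-107-3p: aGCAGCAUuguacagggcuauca
Both are 23 bases long and share their first 21 bases. They differ by G22C, counted from 1 at the 5′ end, with the base of miR-103-3p first. Among 1679 mature names with a sequence, only these 2 had GCAGCAU at bases 2 to 8. A read that ends at or before base 21 is therefore the same for both names. Alignment was in local mode, which need not use the last bases of a read, so longer reads may also be shared. The table gives no read lengths, and the part of shared reads in the counts was not tested. The levels of both miRNAs, and that of the far rarer miR-107-3p above all, are uncertain to that extent.

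The relation to the larger group is shown by the same letters, AGCAGCA, now in capitals. They are the first 7 bases of both miRNAs, and in the most abundant relative and in those that rose, other than miR-503-5p, they start 1 base later, so that they form the seed.
mmu-miR-103-3p: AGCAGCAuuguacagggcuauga
mmu-miR-107-3p: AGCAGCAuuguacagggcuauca
mmu-miR-16-5p: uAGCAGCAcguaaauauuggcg
mmu-miR-15a-5p: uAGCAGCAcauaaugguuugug
mmu-miR-322-5p: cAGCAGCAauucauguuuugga
mmu-miR-497a-5p: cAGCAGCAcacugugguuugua
Of all names with a sequence, 12 (0.715%) had AGCAGCA within their first 9 bases, on the RNA strand. The seed of miR-503-5p, AGCAGCG, differs from it in its last base.

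MiR-103-3p comes from 2 loci and miR-107-3p from 1 (coordinates on GRCm38, hosts from GENCODE vM21). One miR-103-3p locus is chr11:35782447-35782469 on the plus strand, in intron 5 of 6 of the Pank3 coding transcript, which is 1740 bases long. The other is chr2:131288103-131288125 on the plus strand, in intron 5 of 6 of a Pank2 coding transcript, which is 5801 bases long. MiR-107-3p lies at chr19:34820700-34820722 on the minus strand, in intron 5 of 6 of 2 Pank1 coding transcripts, which is 7282 bases long. All 3 loci were on the strand of their host and overlapped 0 annotated exons, and each stood in the same intron number of a transcript with 7 exons. In these transcripts the distance from the upstream exon was 739 bases in Pank3, 505 in Pank2 and 377 in Pank1. Another Pank2 coding transcript had the locus in intron 2 of 3, 13839 bases from the upstream exon. Another Pank1 coding transcript had it in intron 4 of 5. No mRNA data were used here, so host transcripts were not compared with their miRNAs.

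MiR-103-3p was among the most abundant miRNAs of RS and miR-107-3p was not. MiR-103-3p took a mean of 0.911% ± 0.0383 of the counts in WT of batch 1 (SD, n = 5, as for KO) and 0.864% ± 0.0581 in KO. In batch 2 it took 0.959% ± 0.0596 in WT (SD, n = 6, as for KI) and 0.844% ± 0.101 in KI. It ranked between 8 and 19 among all names in every library. MiR-107-3p took 0.0115% ± 0.00175 in WT and 0.0186% ± 0.00213 in KO of batch 1, and 0.00878% ± 7.52e-04 in WT and 0.0129% ± 6.91e-04 in KI of batch 2. Its rank was between 158 and 195.

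The opposite arms of the hairpins were close to the limit of the depth. Over all 22 libraries miR-107-5p had 66 counts, miR-103-1-5p had 41 and miR-103-2-5p had 45, against 4534 counts for miR-107-3p and 350057 for miR-103-3p. The 5p arm was thus 1.43% of the counts of the Mir107 hairpin (95% Wilson interval 1.13% to 1.82%). It was 0.0117% beside miR-103-3p for Mir103-1 (0.00863% to 0.0159%) and 0.0129% for Mir103-2 (0.00961% to 0.0172%), where the 3p counts of both loci are in the denominator. The intervals cover counting error only. None of the 3 5p names passed the filter on low counts, so they were not tested.
mmu-miR-103-1-5p: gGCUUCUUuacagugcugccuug
mmu-miR-103-2-5p: aGCUUCUUuacagugcugccuug
mmu-miR-107-5p: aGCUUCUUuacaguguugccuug
These arms are shown, with the seed in capitals, because they could tell the loci apart. MiR-103-1-5p and miR-103-2-5p differ by G1A, and miR-103-2-5p and miR-107-5p differ by C16U. The counts of the pair from Mir103-1 and Mir103-2 were nevertheless the same in 18 of 22 libraries and never differed by more than 1, so the share of Pank2 and Pank3 loci could not be read from them. The count of miR-103-3p was even in 9 libraries and odd in 13, so not every read in it was entered once for each of its 2 loci. Reads entered at both loci give even counts. Of 40 names with 2 loci and at least 100 counts in all, 10 had an even count in every library. What part of the miR-103-3p count was entered at both loci was not tested.

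In KO, miR-107-3p rose and miR-103-3p fell slightly. Levels are given as CPM, counts scaled by TMM to a common library size within the batch. MiR-107-3p was at 124, 92.5, 123, 133 and 123 CPM in WT and at 194, 185, 192, 161 and 163 CPM in KO, from 82 to 142 counts in WT and 95 to 178 in KO. Every KO library was above every WT library, and WT replicate 2 was the lowest of all. The log2 fold change was 0.59 (SE 0.119, 95% interval 0.33 to 0.85), 1.5-fold, with an adjusted p of 0.00437 in edgeR's quasi-likelihood test. Without WT replicate 2 it was 0.51 (edgeR adjusted p = 0.008). Of the 334 miRNAs tested in this comparison, 21.3% were called higher in KO at an adjusted p under 0.1, and 8.68% were higher with no overlap of the groups. For 50 of them the log2 fold change was above that of miR-107-3p.

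MiR-103-3p was at 9225, 9634, 9172, 9889 and 9406 CPM in WT and at 8493, 8184, 8641, 8130 and 8145 CPM in KO. The groups again did not overlap, here with KO below WT. The log2 fold change was -0.19 (SE 0.051, 95% interval -0.30 to -0.08), 0.879-fold, with an adjusted p of 0.0149 in edgeR. Of the tested miRNAs, 20.7% were called lower in KO, 11.4% were lower with no overlap, and 41.9% were called in either direction. This call depended on the scaling: with library totals alone the difference was -0.07 (edgeR adjusted p = 0.351). That scaling moved the median of all tested miRNAs from 0.01 to 0.13 on the log2 scale. Relative to the median, miR-103-3p stood at -0.20 under both scalings and miR-107-3p at 0.57.

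**Figure D1:**
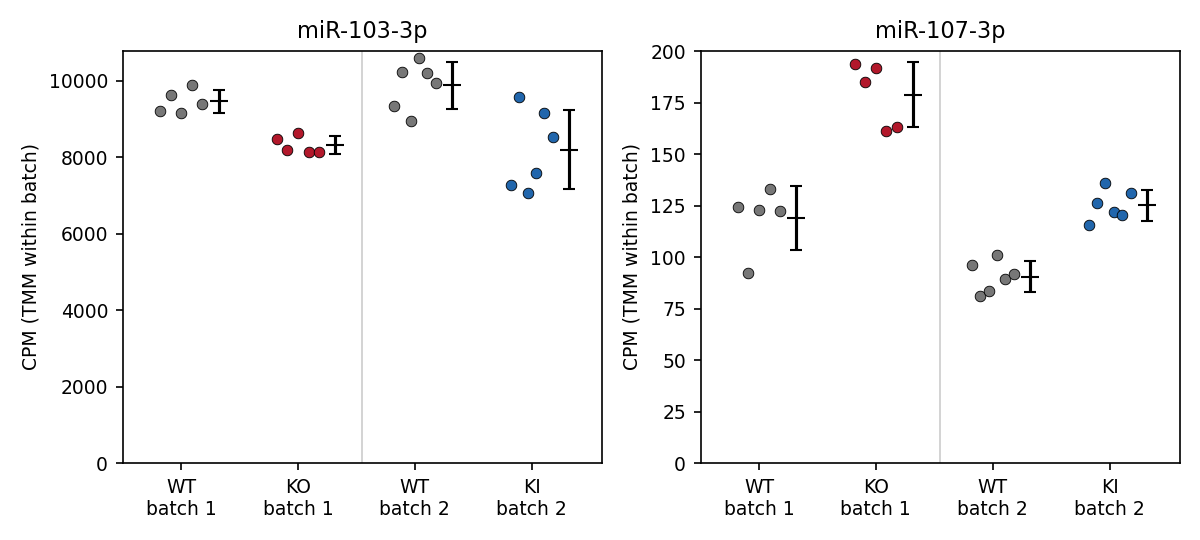
Level of miR-103-3p (left) and miR-107-3p (right) in each library, in CPM scaled by TMM within each batch, for WT (grey), KO (red) and KI (blue). Points are libraries and bars are the mean ± SD (n = 5 in batch 1 and 6 in batch 2). MiR-107-3p was higher in every mutant library than in every WT library of its batch, while for miR-103-3p KO was below WT and the KI libraries reached into the WT range.

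In KI the same pair of directions was seen. MiR-107-3p had a lowest, median and highest level of 81.2, 90.4 and 101 CPM in WT and of 116, 124 and 136 CPM in KI, from 161 to 278 counts in WT and 257 to 381 in KI. All 6 KI libraries were above all 6 WT libraries. The log2 fold change was 0.47 (SE 0.0799, 95% interval 0.30 to 0.64), 1.38-fold, with an adjusted p of 7.44e-04 in edgeR. In this comparison 18.1% of the 387 tested miRNAs were called higher in KI, and 5.43% were higher with no overlap. For 54 of them the log2 fold change was above that of miR-107-3p.

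MiR-103-3p had a lowest, median and highest level of 8959, 10070 and 10614 CPM in WT and of 7081, 8063 and 9579 CPM in KI. The groups overlapped: KI replicates 2 and 5, at 9579 and 9156 CPM, lay within the WT range, and the other KI libraries were below it. The log2 fold change was -0.27 (SE 0.0768, 95% interval -0.43 to -0.10), 0.830-fold, with an adjusted p of 0.0182 in edgeR. In KI 19.9% of the tested miRNAs were called lower and 38% in either direction. Without KI replicate 1 the fall was no longer called, at -0.19 (edgeR adjusted p = 0.115). The SD of miR-103-3p in KI was 1040 CPM, against 615 CPM in the WT of the batch, 298 CPM in the WT of batch 1 and 234 CPM in KO.

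**Figure D2:**
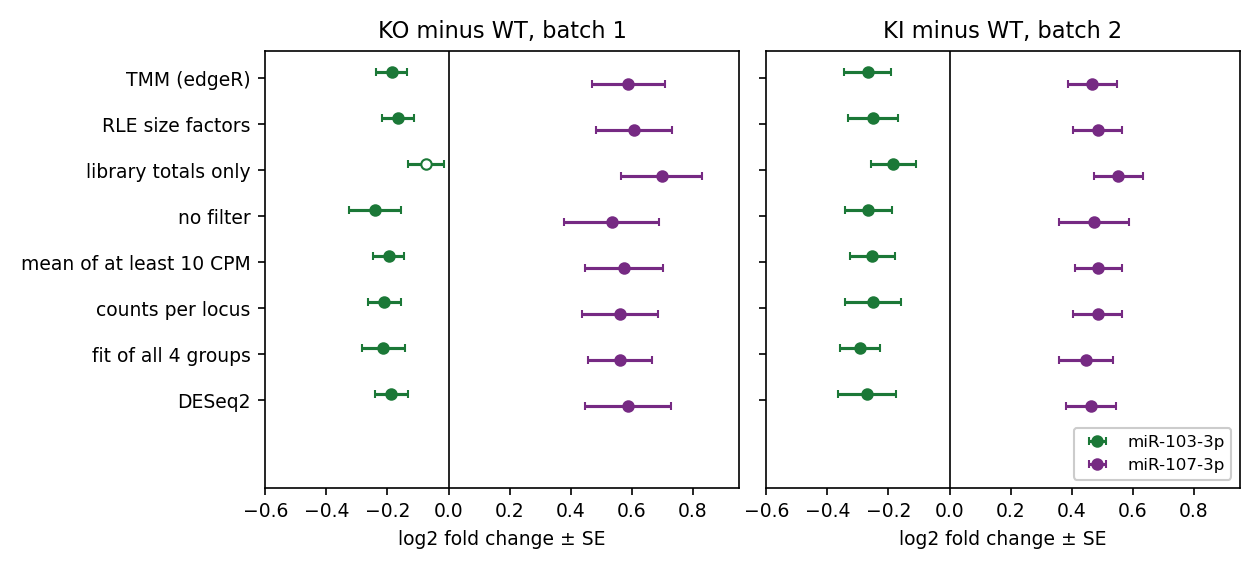
Log2 fold change ± SE of miR-103-3p (green) and miR-107-3p (purple) in KO (left) and KI (right) against the WT of the batch, under the edgeR fit with TMM and under other scalings, filters and fits. Filled points have an adjusted p under 0.1. All values of miR-107-3p lie above 0 and all values of miR-103-3p below it, and the open point is miR-103-3p in KO with library totals only, at -0.07.

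Because miR-103-3p was so much more abundant, its fall was larger in CPM than the rise of miR-107-3p. The mean of miR-103-3p went from 9465 to 8319 CPM in KO and from 9882 to 8204 CPM in KI, and that of miR-107-3p from 119 to 179 CPM and from 90.5 to 125 CPM. With the counts of both names summed, as for a seed they share, the log2 fold change was -0.17 in KO (edgeR adjusted p = 0.0211) and -0.26 in KI (edgeR adjusted p = 0.0202).

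The ratio of the 2 counts within a library needs no scaling between libraries, and it rose in both mutants. In WT of batch 1 there were 1.35, 0.961, 1.34, 1.35 and 1.30 counts of miR-107-3p per 100 counts of miR-103-3p, and in KO 2.28, 2.26, 2.22, 1.98 and 2.01. In batch 2 the lowest, median and highest were 0.794, 0.927 and 1.03 in WT and 1.31, 1.56 and 1.92 in KI. Each mutant library lay above every WT library of its batch. How many other pairs of miRNAs separate in this way was not counted. The ratio is made from the same counts as the changes above, so it adds no separate evidence of them. The log2 ratio was higher by 0.78 in KO, a 1.72-fold change (two-sided exact permutation test, p = 0.00794, adjusted over 3 comparisons 0.00866), and by 0.75 in KI, a 1.68-fold change (exact permutation p = 0.00216, adjusted 0.00649). Both p-values are the smallest that these numbers of libraries can give. Without WT replicate 2 of batch 1, which stood apart, the log2 ratio in KO was higher by 0.69 (exact permutation test, adjusted p = 0.0159).

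**Figure D3:**
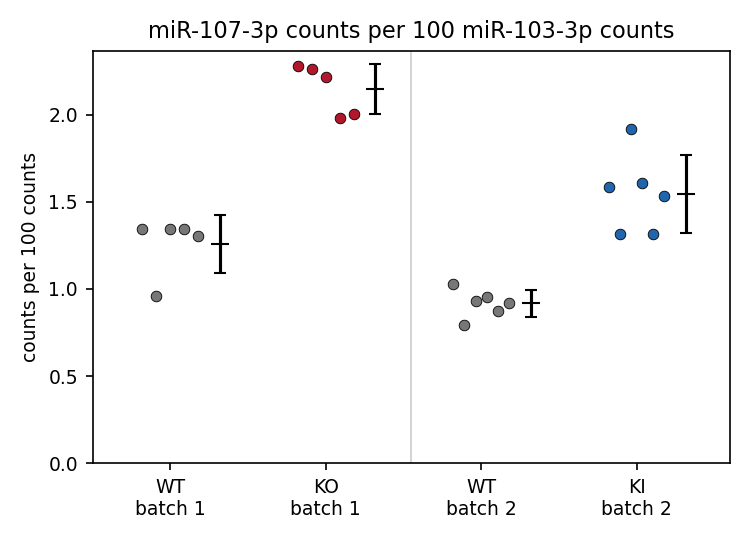
Counts of miR-107-3p per 100 counts of miR-103-3p in each library, with the mean ± SD of each group (n = 5 in batch 1 and 6 in batch 2). The KO libraries lie between 1.98 and 2.28 and the KI libraries between 1.31 and 1.92, each above all WT libraries of the same batch, and the low WT library of batch 1 is at 0.961.

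The counts of miR-107-3p set most of the precision of this ratio. The coefficient of variation that counting alone would give at the mean count of miR-107-3p was 9.42% in WT and 8.70% in KO of batch 1, and 6.64% in WT and 5.55% in KI of batch 2. The ratio itself varied by 13.3%, 6.70%, 8.63% and 14.5% in those groups. The spread was thus below that of counting in KO, above it in both WT groups and more than 2 times as large in KI. Per locus, with the counts of miR-103-3p divided between its 2 loci, the mean ratio was 2.52% in WT, 4.30% in KO, 1.83% in WT of batch 2 and 3.09% in KI.

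Neither member differed detectably between the mutants in its response. The KO effect minus the KI effect, in a fit of all 4 groups, was 0.08 on the log2 scale for miR-103-3p (95% interval -0.12 to 0.28, edgeR adjusted p = 0.691) and 0.11 for miR-107-3p (-0.17 to 0.40, edgeR adjusted p = 0.691). These intervals still allow differences of the size of the miR-103-3p effects. In this test 0% of the 421 miRNAs were called by edgeR, and 67 had an unadjusted p under 0.05. DESeq2 also called 0. Without KI replicate 2 edgeR called 26, neither member among them.

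The WT groups showed how far the members moved without a change of genotype. MiR-103-3p was higher in WT of batch 2 than in WT of batch 1 by 0.41 (SE 0.0594, edgeR adjusted p = 4.14e-05), with no overlap, and miR-107-3p differed by -0.05 (95% interval -0.28 to 0.17, edgeR adjusted p = 0.728). Of 383 miRNAs, 56.7% were called between the WT groups, and 17% were higher in batch 2 with no overlap. With library totals only, the batch difference was 0.07 for miR-103-3p (edgeR adjusted p = 0.21) and -0.39 for miR-107-3p (edgeR adjusted p = 0.00975), while the median of all miRNAs moved to -0.34. The ratio needs no such scaling, and its log2 value was lower in WT of batch 2 by 0.45, or 0.732-fold (exact permutation p = 0.00866, adjusted 0.00866), with the lowest library of batch 1 inside the range of batch 2. For miR-103-3p the batch difference under TMM was larger than either mutant effect, so levels are read within batches.

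Across the 4 groups, with all libraries scaled together by TMM, miR-103-3p ranged from 6885 to 7445 CPM in KO, from 7845 to 8503 in WT of batch 1, from 7974 to 10589 in KI and from 9858 to 12307 in WT of batch 2. Neighbours in this order overlapped except KO and WT of batch 1. MiR-107-3p ranged from 79.6 to 114 CPM in WT of batch 1, from 91.8 to 112 in WT of batch 2, from 132 to 153 in KI and from 136 to 170 in KO. Under this scaling the WT groups overlapped and so did the mutant groups, and every mutant library was above every WT library of either batch. How many of all miRNAs separate in this way was not counted. As shares of the library total this separation was lost across batches: miR-107-3p reached 0.0131% in WT of batch 1, above the lowest KI library at 0.0120%. The order of the mean shares was KI, KO, WT of batch 1, WT of batch 2 for miR-103-3p and WT of batch 2, WT of batch 1, KI, KO for miR-107-3p. A batch effect and any other difference between the WT groups cannot be told apart.

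Library by library, hardly any relation of the members was seen within groups. After the mean of each group was subtracted, the Pearson correlation of their log2(CPM + 1) values was 0.07 over the 22 libraries, which share their scaling. With the batch means subtracted instead, so that the genotypes remained, it was -0.68. Counting alone would vary miR-107-3p by 5.55% in KI and up to 9.42% in WT of batch 1. This limits how high a correlation within groups could be seen.

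The miRNAs whose pattern was most like miR-103-3p, by Pearson correlation of log2(CPM + 1) over the 22 libraries after the batch means were subtracted, were miR-743a-3p (r = 0.95), miR-128-3p (0.88), miR-93-5p (0.88), miR-183-5p (0.88) and miR-470-5p (0.88), of 419 compared. MiR-743a-3p and miR-470-5p are from X-linked clusters that are abundant in the testis. MiR-743a-3p fell in KO by 0.23 on the log2 scale (edgeR adjusted p = 0.0132) and in KI by 0.47 (edgeR adjusted p = 0.00252). MiR-470-5p fell by 0.38 (edgeR adjusted p = 0.00761) and 0.54 (edgeR adjusted p = 7.35e-04). After subtraction of the group means r was 0.89 for miR-743a-3p and between 0.59 and 0.79 for the other 4. These 5 names were picked as the highest of 419 over the same libraries, which favours high values here too. The r within groups was not given for the other names, so these values are description only.

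For miR-107-3p the same measure, applied after its values were seen, gave miR-10b-5p (r = 0.89), miR-26a-5p (0.88), miR-322-5p (0.84), miR-199b-3p (0.84) and miR-199a-3p (0.84). MiR-10b-5p, which lies in a Hox cluster, rose by 1.0 in KO (edgeR adjusted p = 0.00627) and 0.90 in KI (edgeR adjusted p = 8.86e-04). MiR-26a-5p, itself an intronic miRNA, rose by 0.46 (edgeR adjusted p = 0.00234) and 0.40 (edgeR adjusted p = 5.61e-04). After subtraction of the group means these correlations were 0.61, 0.41, 0.50, 0.61 and 0.61, with the same limit as for miR-103-3p. The 199a-3p and 199b-3p products share their sequence and cannot be told apart by their reads.

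Of the 7 other members of the miR-15 and miR-107 group, which are known for roles in cell cycle control and apoptosis, 2 rose and 1 fell in KO, with a median log2 fold change of -0.05 beside 0.01 over all miRNAs tested. In KI 3 rose and 0 fell, with a median of 0.04 beside 9.00e-04. With 3 of 7 called in each mutant, beside 41.9% of all miRNAs in KO and 38% in KI, the share called was near that of all miRNAs. MiR-322-5p, the mouse counterpart of human miR-424, rose in both, by 0.82 (SE 0.193, edgeR adjusted p = 0.00889) in KO and 0.52 (SE 0.111, edgeR adjusted p = 0.00315) in KI. MiR-503-5p, which is clustered with it on the X chromosome, rose by 0.62 in KO (edgeR adjusted p = 0.013) and was at 0.04 in KI (edgeR adjusted p = 0.81). MiR-16-5p, the most abundant of the group with 11777414 counts over all libraries, fell by 0.16 in KO (edgeR adjusted p = 0.0927) and was at -0.10 in KI (edgeR adjusted p = 0.106). MiR-15a-5p rose in KI by 0.20 (edgeR adjusted p = 0.0442), where miR-497a-5p rose by 0.26 (edgeR adjusted p = 0.0301). MiR-15b-5p and miR-195a-5p were not called in either mutant.

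**Figure D4:**
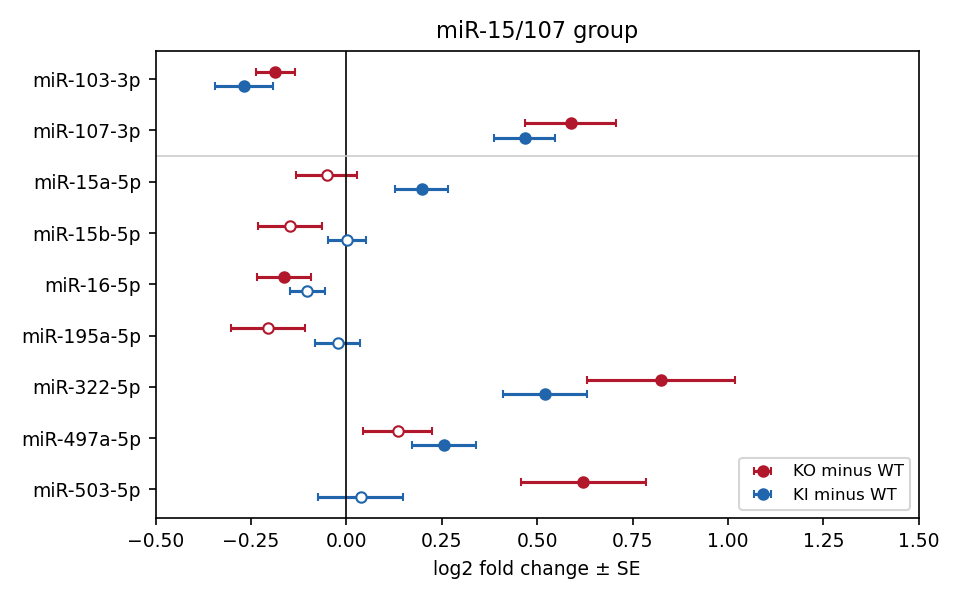
Log2 fold change ± SE in edgeR of miR-103-3p, miR-107-3p and the 7 other members of the miR-15 and miR-107 group in KO (red) and KI (blue) against the WT of the batch, with filled points for an adjusted p under 0.1. MiR-107-3p and miR-322-5p are to the right of 0 in both mutants, at 0.59 and 0.82 in KO, and miR-103-3p is to the left in both.

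Of 5 other miRNAs that lie in introns of paralogous hosts (Ctdsp, R3hdm1 and Arpp21, Ptprn and Slit genes), 4 were tested in KO, where 1 rose and 1 fell (median 0.36 beside 0.01 over all miRNAs tested), and 5 in KI, where 2 rose and 1 fell (median 0.15). Over all miRNAs tested 41.9% were called in KO and 38% in KI, and nothing particular to this list is read from so few names. MiR-26a-5p rose in both, as given above, and miR-26b-5p, from another host of the same family, was not called (0.26 in KO, edgeR adjusted p = 0.104, and 0.15 in KI, edgeR adjusted p = 0.177). MiR-128-3p, whose loci share 1 mature sequence as those of miR-103-3p do, fell by 0.47 in KO (edgeR adjusted p = 0.00183) and 0.35 in KI (edgeR adjusted p = 0.00594). MiR-218-5p, from Slit introns, rose in KI by 0.55 (edgeR adjusted p = 0.026) and was at 0.50 in KO (edgeR adjusted p = 0.161).

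Of 8 miRNAs known in lipid and glucose metabolism, only 3 had enough counts to be tested in either comparison. MiR-143-3p, which is also on the smooth muscle list below, rose by 1.02 in KO (edgeR adjusted p = 0.00709) and 0.58 in KI (edgeR adjusted p = 0.0369). MiR-34a-5p fell in KI by 0.80 (edgeR adjusted p = 7.31e-05) and was at -0.47 in KO (edgeR adjusted p = 0.13), and miR-27b-3p was not called. The median over the 3 was 0.50 in KO and 0.43 in KI. MiR-33-5p, from introns of the Srebf2 gene of sterol synthesis, had 26 counts and miR-122-5p, the main liver miRNA, had 8 over all libraries, and miR-27a-3p had 0. The other 2 untested names, miR-370-3p and miR-378a-3p, had 3 and 90.

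The markers of other cells that were called rose, as miR-107-3p did, and the germ cell miRNAs that were called fell, as miR-103-3p did. The RS had been separated by sedimentation in a gradient, and the study reports that their purity was checked by DAPI staining under a microscope. Its methods also state a lower limit of purity for the RS used for small RNA. Of the 7 germ cell miRNAs, 0 rose and 6 fell in KO (median -0.38), and 0 rose and 4 fell in KI (median -0.30), where the medians over all miRNAs tested were 0.01 and 9.00e-04. Of all miRNAs tested, 20.7% were called lower in KO and 19.9% in KI. MiR-741-3p fell by 0.38 in KO (edgeR adjusted p = 0.00161) and 0.41 in KI (edgeR adjusted p = 1.17e-05). MiR-880-3p, from the same X-linked region, fell by 0.58 in KO (edgeR adjusted p = 5.44e-04) and 0.41 in KI (edgeR adjusted p = 0.00162), and miR-465a-5p by 0.47 (edgeR adjusted p = 0.00183) and 0.30 (edgeR adjusted p = 0.00105). The most abundant of the list, miR-34c-5p, fell by 0.21 in KO (edgeR adjusted p = 0.0809) and 0.11 in KI (edgeR adjusted p = 0.0271). MiR-34b-5p and miR-184-3p fell in KO, by 0.27 (edgeR adjusted p = 0.0643) and 0.91 (edgeR adjusted p = 0.0327), and were not called in KI. MiR-449a-5p was not called in either mutant.

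Of 7 blood and immune cell miRNAs, 5 were tested. In KO 3 rose and 0 fell (median 0.68), and in KI 4 rose and 0 fell (median 0.56), where 21.3% of all miRNAs tested were called higher in KO and 18.1% in KI. MiR-223-3p of myeloid cells rose by 0.68 in KO (edgeR adjusted p = 0.0892) and 0.97 in KI (edgeR adjusted p = 0.00201). The lymphocyte miRNA miR-150-5p rose by 1.64 (edgeR adjusted p = 0.0273) and 0.90 (edgeR adjusted p = 0.0242), and miR-155-5p of activated immune cells by 0.85 (edgeR adjusted p = 5.44e-04) and 0.56 (edgeR adjusted p = 5.96e-04). MiR-142a-3p, found across blood cells, rose in KI by 0.52 (edgeR adjusted p = 0.00175) and was at 0.11 in KO (edgeR adjusted p = 0.391). The red cell miRNA miR-451a was not called in either mutant, and miR-144-3p, the other red cell marker, had 0 counts in 3 of the 4 groups. The summed share of the list was 0.437% to 0.547% of counts in WT and 0.505% to 0.700% in KO, and 0.229% to 0.283% in WT and 0.304% to 0.476% in KI.

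Of the 6 miRNAs of vessels, smooth muscle and muscle, 4 of 5 tested rose in KO and 0 fell (median 0.96), and 3 of 6 rose in KI and 0 fell (median 0.24), beside the 21.3% and 18.1% of all miRNAs called higher. MiR-145a-5p of smooth muscle rose by 0.57 in KO (edgeR adjusted p = 0.0594) and 0.52 in KI (edgeR adjusted p = 0.0586), and miR-199a-3p by 0.96 (edgeR adjusted p = 0.013) and 0.78 (edgeR adjusted p = 0.00724). The striated muscle miRNA miR-1a-3p rose most of the list in KO, by 1.79 (edgeR adjusted p = 0.0417), but was at -0.49 in KI (edgeR adjusted p = 0.518). MiR-133a-3p, also of striated muscle, was at -0.49 in KI (edgeR adjusted p = 0.504) and did not pass the filter in KO. MiR-143-3p rose in both, as given above, and the endothelial miR-126a-3p was not called in either. The summed share was 0.0695% to 0.197% in WT and 0.182% to 0.415% in KO, and 0.121% to 0.214% in WT and 0.168% to 0.386% in KI. The part of other cells in the changes of miR-103-3p and miR-107-3p was not tested. In bulk samples fewer cells of a type and less of a miRNA per cell cannot be told apart.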

How the data were processed

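The deposited values were counts, whole read numbers for each mature miRNA, made by the authors from cutadapt-trimmed reads of at least 15 bases. Per the submitters' notes and the study's methods, these were aligned to GRCm38 (mm10) with Bowtie2 2.4.2 in local mode, with up to 100 alignments per read, and counted by strand with featureCounts (Subread 2.0.1). How reads with several alignments were counted is not given in the sources used here. Batches follow the letters of the sample titles, while the study's methods put KI first. The labels do not say whether libraries came from separate animals, so p-values measure the spread between these samples. 0 columns were left out.

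Counts were tested with edgeR 4.0.16 (R 4.3.3, quasi-likelihood F-test, TMM, filterByExpr), with genotype as the only term in each batch, and the threshold of a call was an adjusted p (Benjamini-Hochberg, over all miRNAs tested) under 0.1. SE is the log2 fold change divided by the square root of F. DESeq2, the method used by the authors, was an alternative, here in version 1.42.0. Exact permutation tests, two-sided, served for ratios and library totals (scipy 1.17.1). The fits were tested on simulated data. A count of 3 was taken as the least that depth can show.

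Named are both members, the other products of their hairpins, names with the same seed, list members called in either mutant (the others as counts, with examples), and the 5 names most like miR-103-3p. The 5 most like miR-107-3p and examples not called were added after their values were seen. Members and lists were chosen with earlier results of these data known.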

Additional observations from a re-analysis of the deposited data

Results flagged for a closer look

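WT replicate 2 of batch 1 stood apart from the other 4 WT libraries of its batch in 2 linked measures. Its miR-107-3p level was 6.53 as log2 CPM, with the others between 6.94 and 7.06. Its log2 ratio of miR-107-3p to miR-103-3p counts was -6.70, with the others between -6.26 and -6.22. The gap to the nearest library was 77.3% and 90.4% of the range of the group. Of 12 such measures and groups screened, 2 stood apart, where about 0.6 would by chance, and both rest on the same 82 counts. Leaving the library out lowered the KO effect on miR-107-3p from 0.59 to 0.51, which was still called.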

How the results depend on the processing

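Beside leaving out libraries, the alternatives were DESeq2, RLE size factors, library totals only, no filter on low counts, a mean of at least 10 CPM, both names summed, counts divided by loci, a replicate block and, for KO and KI, a fit of all 4 groups. With library totals only, the fall of miR-103-3p in KO was -0.074 and no longer called. Between the WT groups miR-103-3p was then 0.075, no longer called, and miR-107-3p -0.39, now called. Relative to the median of all miRNAs these values hardly moved. Without the filter, miR-107-3p between the WT groups was 0.038, and the KO minus KI effect of miR-103-3p was -0.0048, neither called. The summed counts follow miR-103-3p by construction, so that in place of miR-107-3p they gave -0.17 in KO, -0.26 in KI and 0.36 between the WT groups.

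Leaving out 1 library moved miR-103-3p between -0.20 and -0.17 in KO and between -0.32 and -0.19 in KI, where the call was lost without KI replicate 1. MiR-107-3p moved between 0.51 and 0.63 in KO and 0.44 and 0.53 in KI, always called. The KO minus KI effect of miR-103-3p ranged from -0.028 to 0.12, with a change of sign without KO replicate 4 (-0.0084) or KO replicate 5 (-0.028). The number of miRNAs called for that difference ranged from 0 to 26, with 26 without KI replicate 2 and 1 without WT replicate 1 of batch 2. The causes were not tested.

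Whether the replicate numbers of the titles pair the libraries is not clear. The deviations of same-numbered libraries correlated above 0.1 in 2 of 5 pairs for KO (mean r 0.05, highest 0.31). For KI they did so in 3 of 6 pairs (mean r 0.19, highest 0.56). The library of the same number was the best match in 2 of 5 cases for KO and 3 of 6 for KI. With a replicate block, miR-103-3p was -0.19 in KO (edgeR adjusted p = 0.0778) and -0.28 in KI, and miR-107-3p 0.59 and 0.47, all called, and the KO minus KI difference was called for 25 miRNAs, neither member among them. Paired by sign flips, the log2 ratio had an adjusted exact permutation p of 0.0625 in all 3 comparisons. That is the smallest adjusted value that these numbers of pairs can give. Depth limits miR-107-3p, with as few as 82 counts in a library, and the 5p arms, with at most 9.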
